A study of Mus musculus with 12 samples.

Results

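The genes described here code for the BATF, AP-1, and IRF transcription factors of activated T cells. They were chosen by symbol: Batf and Batf3, the JUN genes Jun, Junb, and Jund, the FOS genes Fos and Fosl2, the interferon regulatory factor genes Irf4 and Irf8, and Bach2. Of these 10 genes, 9 were listed among the 11247 genes of the deposited tables, and Batf3 was in neither table. The RNA had been taken after 72 h from CD4+ T cells of C57BL/6 mice aged 8 to 10 weeks, which were enriched from spleen as naive CD4+CD62L+ cells and activated with plate-bound anti-CD3 and anti-CD28 at 1 ug/ml each. Th0 cells received this activation only. Th17 cells also received IL6 at 30 ng/ml, TGFb1 at 5 ng/ml, and neutralizing anti-IL4 and anti-IFNg at 10 ug/ml each. Induced regulatory T (iTreg) cells received IL2 and TGFb1, each at 10 ng/ml by the labels, while the study's methods name a higher TGFb1 dose. The iTreg cultures therefore differed from the Th17 cultures in TGFb1 dose, in IL2, and in the neutralizing antibodies as well as in IL6. Each group held 4 libraries from independent cultures, named here by the beginning of their column headings, M22, M29, M42, and M43. Whole cultures were sequenced, so that fewer cells of a kind and less RNA per cell cannot be told apart.

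AP-1 is a pair of basic leucine zipper (bZIP) proteins that grips DNA as a dimer. JUN proteins pair with one another or with FOS proteins, whereas FOS proteins need a JUN partner. BATF and BATF3 also take a JUN partner but carry little besides the zipper, and a BATF-JUN pair binds jointly with IRF4 or IRF8 at composite elements that join an AP-1 site to an IRF site. In T cells this joint binding is known to open Th17 genes, with BATF, IRF4, and JUNB required for Th17 differentiation. BACH2 is a bZIP repressor that shares AP-1-like sites and is known to hold back effector genes and to favor regulatory T cells.

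The FPKM values, which are read counts scaled by transcript length and library size, lay on steps that gave back whole reads for 99.991% of the listed genes, with totals of 7185347 to 9412634 reads per library in the Th17 table and 7182208 to 10628620 in the iTreg table. The cultures carried the markers of their labels. Il17f, a Th17 cytokine gene, was at 0.0909 to 0.184 FPKM in Th0 libraries and at 281 to 788 FPKM in Th17 libraries, and Foxp3 was at 62.0 to 91.7 FPKM in iTreg libraries. The M43 Th17 library stood apart from its label, with Foxp3 at 42.5 FPKM against 0.499, 0.502, and 4.50 FPKM in the other Th17 libraries and 2.04 to 7.24 FPKM in Th0 libraries, and values without it are given beside the results it touches. Of the 6 B cell markers only Cd79a was listed, at no more than 3.84 FPKM, and none of the 4 NK cell markers was listed. Of the 6 macrophage markers Csf1r, Lyz2, Adgre1, and Cd14 were not listed, while Cd68 and Itgam summed to 5.58 to 16.5 FPKM in Th17 and 3.34 to 5.03 FPKM in Th0 libraries without overlap, and the part of such cells in the Th17 results was not tested.

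The promoters of the genes with the largest rises are shown because AP-1, IRF, and STAT proteins are known to act on AP-1 and IRF genes. They are the bases just before the start of transcription of Jun, Batf, and Irf8 in RefSeq (GRCm38.p6, the build also called mm10), cut for Batf where the GENCODE gene begins. Capitals mark a match to any of 7 short motifs.
Jun promoter, chr4:95052223-95052472 (minus strand): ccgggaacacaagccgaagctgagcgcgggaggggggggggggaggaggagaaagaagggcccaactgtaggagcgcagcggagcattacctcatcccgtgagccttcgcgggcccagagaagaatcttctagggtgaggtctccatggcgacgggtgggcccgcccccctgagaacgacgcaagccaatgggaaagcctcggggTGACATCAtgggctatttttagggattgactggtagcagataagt
Batf promoter, chr12:85686470-85686668 (plus strand): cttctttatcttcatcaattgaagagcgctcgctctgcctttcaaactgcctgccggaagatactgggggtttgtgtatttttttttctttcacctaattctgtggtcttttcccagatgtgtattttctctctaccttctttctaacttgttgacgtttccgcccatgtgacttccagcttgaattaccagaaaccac
Irf8 promoter, chr8:120736108-120736357 (plus strand): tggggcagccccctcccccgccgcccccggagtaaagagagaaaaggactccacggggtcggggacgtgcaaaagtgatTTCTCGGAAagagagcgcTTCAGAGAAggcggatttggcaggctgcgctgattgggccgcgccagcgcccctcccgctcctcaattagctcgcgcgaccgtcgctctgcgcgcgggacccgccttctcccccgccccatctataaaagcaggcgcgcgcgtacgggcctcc
The capitals in the Jun promoter are TGACATCA, a variant of the AP-1 and CRE motifs, 45 to 38 bases before the start. This motif was in 2.93% of the 32851 promoter windows of 250 bases, on either strand. The Irf8 promoter held the STAT motif TTCNNNGAA at 171 to 163 and again at 153 to 145 bases before the start, a motif found in 7.02% of windows and also in those of Batf3 and Bach2. None of the 7 motifs was matched in the window of Batf. The AP-1 motif TGANTCA (6.75% of windows), the CRE TGACGTCA (1.55%), the AP-1 and IRF composite of GAAA directly before TGANTCA (0.1005%), and the NFAT motif TGGAAA (18.6%) were matched in none of the 10 windows, and the IRF tandem, 2 copies of GAAA with any 2 bases between them (2.98%), in that of Fosl2 alone. The composite contains the AP-1 motif, so that those searches overlap, and a match or its lack in these windows says nothing about binding.

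Polarization moved these genes in different combinations. In Th17 cells Jun, Batf, and Fosl2 rose by 10.4, 5.06, and 3.95 times in mean FPKM and Junb by 1.61 times, while Jund fell. In iTreg cells Irf8 rose by 23.1 times and Jun by 6.25 times, while Fos and Jund fell. Differentially expressed (DE) here means a Benjamini-Hochberg adjusted p under 0.05 in limma on log2(FPKM + 1) over all genes tested. Of the 9 members tested, 5 were DE in Th17 cells, 4 of them higher, where 19.3% of all 10269 genes were DE (10.6% higher and 8.69% lower). In iTreg cells 4 of the 9 were DE, 2 higher and 2 lower, where 16.6% of 10208 genes were (8.36% higher and 8.21% lower). Of the 2 lower, Fos could have entered that test through the Th0 libraries alone. The median size of the log2 change was 0.72 over the members and 0.23 over all genes in Th17 cells, and 0.45 and 0.21 in iTreg cells. Both comparisons used the same Th0 cultures, whose values were scaled separately in each table by a factor of 1.01 between them, so that no test was made between Th17 and iTreg cells. A term for the heading (a replicate block) raised the share of DE genes to 37.8% and 40.9%, and the members that were DE to 7 and 5, by Bach2 and Irf4 in Th17 cells, where 19.2% of genes were higher under the block, and by Fosl2 in iTreg cells, where 20.9% were. Without the M43 Th17 library 1660 genes and 4 members were DE in Th17 cells, Junb being the one lost and Batf, Jun, Fosl2, and Jund staying DE.

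**Figure D1:**
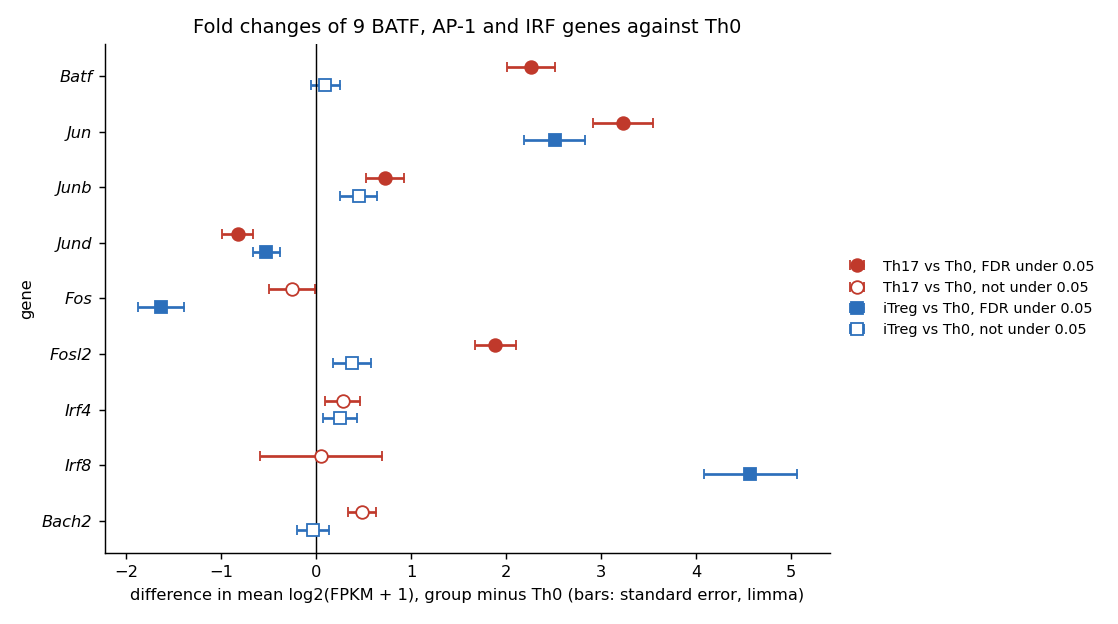
Log2 fold changes of the 9 listed genes against Th0, as differences in mean log2(FPKM + 1) from limma without a replicate block, with bars for 1 standard error and 4 libraries per group. Filled symbols mark an adjusted p under 0.05. Jun lay far to the right in both comparisons (3.23 and 2.51), Batf and Fosl2 in the Th17 comparison (2.26 and 1.89), and Irf8 in the iTreg comparison (4.57).

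Batf (chromosome 12, 85686669 to 85709087, plus strand, GRCm38) codes for the BATF partner of JUN proteins. In Th0 cells its M22, M29, M42, and M43 libraries held 39.1, 29.02, 25.0, and 26.1 FPKM. In Th17 cells they held 157, 188, 172, and 85.6 FPKM. Every Th17 library lay above every Th0 library, and the M43 library, which also held the most Foxp3, was the lowest of the Th17 libraries. The log2 fold change was 2.26 (SE 0.25, adjusted p = 4.08e-04 from limma), the 113th largest of the 5120 positive changes, and without the M43 Th17 library it was 2.51 (adjusted p = 1.21e-04). The part of Foxp3-expressing cells in the level of that library was not tested. In iTreg cells Batf was at 31.2, 31.6, 35.2, and 26.7 FPKM, inside the range of Th0 libraries, and the log2 fold change was 0.09 (SE 0.15, adjusted p = 0.746). The value behind each Th0 and iTreg library rested on 206 to 308 reads. Batf3 (chromosome 1, 191097847 to 191108945, plus strand), the close relative known from dendritic cells, had no value in either table, and the study's filter removed genes with few reads.

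**Figure D2:**
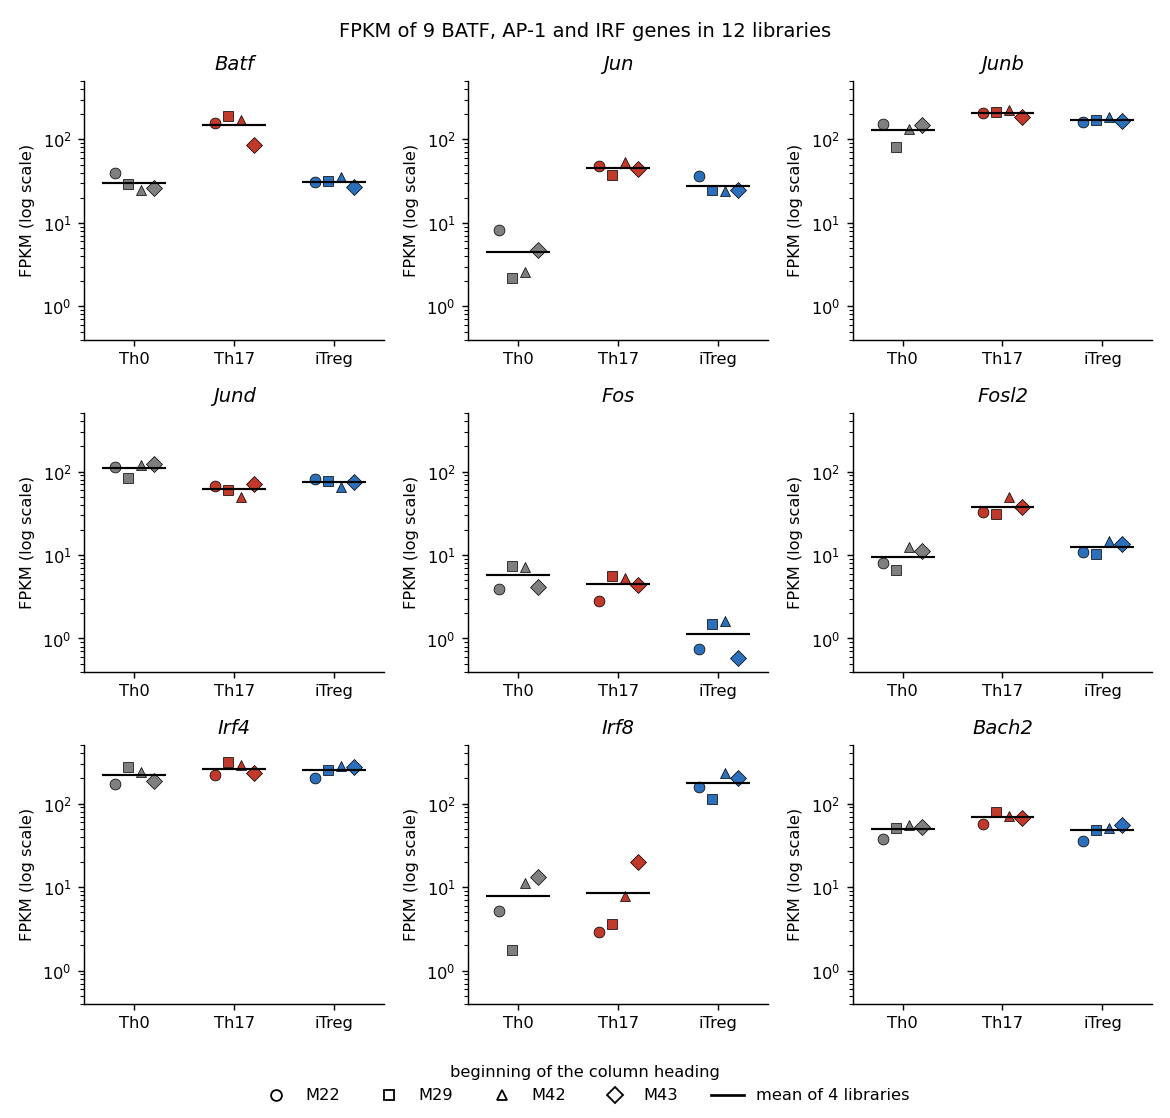
FPKM of the 9 listed genes in each library, on a log scale, with Th0 values from the Th17 table, a symbol for each heading beginning, and a line at the mean of 4 libraries. The 4 iTreg libraries stand alone for Irf8 (115 to 234 FPKM) and for Fos (0.587 to 1.64 FPKM), the 4 Th17 libraries for Batf (85.6 to 188 FPKM) and Fosl2 (31.1 to 50.1 FPKM), and Jun was higher in all 8 polarized libraries than in any Th0 library.

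The 3 JUN genes moved in different directions. Jun (chromosome 4, 95049034 to 95052222, minus strand) codes for c-JUN, the founding AP-1 subunit and a strong activator. Its Th0 libraries held 8.29, 2.20, 2.58, and 4.67 FPKM, from 55 to 198 reads. The Th17 libraries held 48.4, 37.4, 53.4, and 44.6 FPKM and the iTreg libraries 36.3, 24.7, 24.0, and 24.7 FPKM. No polarized library overlapped with a Th0 library, and M22 was the highest of its group in both Th0 and iTreg cells. The log2 fold change was 3.23 in Th17 cells (SE 0.31, adjusted p = 1.95e-04) and 2.51 in iTreg cells (SE 0.32, adjusted p = 0.00117), the 41st and 65th largest positive changes of their comparisons. The antisense gene Junos covers 7.28% of the exonic bases of Jun. Counting was without strand in a mode that leaves out a read over 2 annotated genes, and whether that annotation held Junos is unstated.

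Junb (chromosome 8, 84974484 to 84978718, minus strand) codes for the JUN protein that is the usual partner of BATF in Th17 cells. The Th0 libraries held 153, 80.9, 133, and 151 FPKM. The Th17 libraries held 206, 216, 222, and 187 FPKM and the iTreg libraries 161, 168, 184, and 165 FPKM. Both polarized groups lay wholly above Th0 cells, and the M29 Th0 library was far below the other Th0 libraries. The log2 fold change was 0.72 in Th17 cells (SE 0.20, adjusted p = 0.035) and 0.45 in iTreg cells (SE 0.19, adjusted p = 0.162). Without the M42 Th0 library or any single one of the Th17 libraries, the adjusted p for Th17 cells was 0.056 to 0.083, and after median centring it was 0.0502. Without the M29 Th0 library the log2 fold change in iTreg cells was 0.24 (adjusted p = 0.159). The gene Prdx2 shares 7.52% of the exonic bases of Junb.

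Jund (chromosome 8, 70698949 to 70700616, plus strand) codes for JUND, the JUN protein abundant in resting cells. Its levels were 114, 83.9, 119, and 123 FPKM in Th0 cells. Th17 libraries were at 66.9, 59.8, 48.9, and 70.3 FPKM and iTreg libraries at 81.7, 77.4, 65.7, and 74.1 FPKM. Both polarized groups lay below Th0 cells without overlap, with M42 the lowest in each, and the M29 Th0 library was the lowest Th0 library. Jund fell by 0.83 on the log2 scale in Th17 cells (SE 0.16, adjusted p = 0.0078) and by 0.53 in iTreg cells (SE 0.14, adjusted p = 0.033). The iTreg call was lost when any library but the M29 Th0 library was left out, with an adjusted p of 0.057 to 0.088. Gm11175 on the minus strand covers 52.6% of the exonic bases of Jund, so that the value of Jund rests on the unshared bases if the annotation used held Gm11175, and otherwise includes any reads of both strands.

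Of the FOS genes, Fosl2 rose in Th17 cells and Fos fell in iTreg cells. Fos (chromosome 12, 85473890 to 85477273, plus strand) codes for c-FOS, an immediate early protein of T cell activation. It was at 3.95, 7.48, 7.23, and 4.09 FPKM in Th0 libraries. It was at 2.81, 5.65, 5.34, and 4.40 FPKM in Th17 libraries and at 0.744, 1.498, 1.64, and 0.587 FPKM in iTreg libraries. The Th17 libraries overlapped with Th0 cells, whereas every iTreg library lay below every Th0 library. The Th17 log2 fold change was -0.26 (SE 0.24, adjusted p = 0.518). Fos fell by 1.63 on the log2 scale in iTreg cells (SE 0.24, adjusted p = 0.0027), which understates a mean FPKM 5.03 times lower, since the pseudocount of 1 is close to the iTreg levels. These iTreg values stood on 11 to 31 reads per library against 62 to 140 in Th0 libraries. Not every iTreg library exceeded 1 FPKM. Fos could thus have entered the test through the Th0 libraries alone, and its direction is a description. Within headings the fall in iTreg cells was nearly the same, from 1.49 to 1.75 log2 units, and M29 and M42 were the higher libraries of Fos in all 3 groups.

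Fosl2 (chromosome 5, 32135801 to 32157842, plus strand) codes for FRA-2, a FOS protein known to restrain parts of the Th17 program while sharing sites with BATF. Its Th0 libraries were at 8.08, 6.62, 12.4, and 11.3 FPKM. The Th17 libraries were at 32.7, 31.1, 50.1, and 37.2 FPKM and the iTreg libraries at 10.8, 10.2, 14.9, and 13.5 FPKM. The Th17 libraries stood apart, the iTreg libraries overlapped with Th0 cells, and M42 was the highest and M29 the lowest in each group. The log2 fold change in Th17 cells was 1.89 (SE 0.21, adjusted p = 4.30e-04). In iTreg cells it was 0.37 (SE 0.20, adjusted p = 0.250). Fosl2 was nevertheless higher than in the Th0 library of the same heading in 4 of 4 iTreg libraries, and with the replicate block the adjusted p was 0.0098.

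Fos and Batf lie 209395 bases apart on chromosome 12 with Jdp2 (85599027 to 85639878) as the only protein-coding gene between them, all on the plus strand. Jdp2, which codes for a JUN-binding repressor, was picked out for this place after its values were seen. It rose from 1.49 ± 0.362 to 16.5 ± 7.18 FPKM (SD, n = 4) in Th17 cells and from 1.47 ± 0.360 to 3.85 ± 1.40 FPKM (SD, n = 4) in iTreg cells, with log2 fold changes of 2.73 (adjusted p = 2.76e-04) and 0.94 (adjusted p = 0.012). These neighbors showed 3 patterns, with Jdp2 DE in both comparisons, Batf in Th17 cells, and Fos in iTreg cells.

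**Figure D3:**
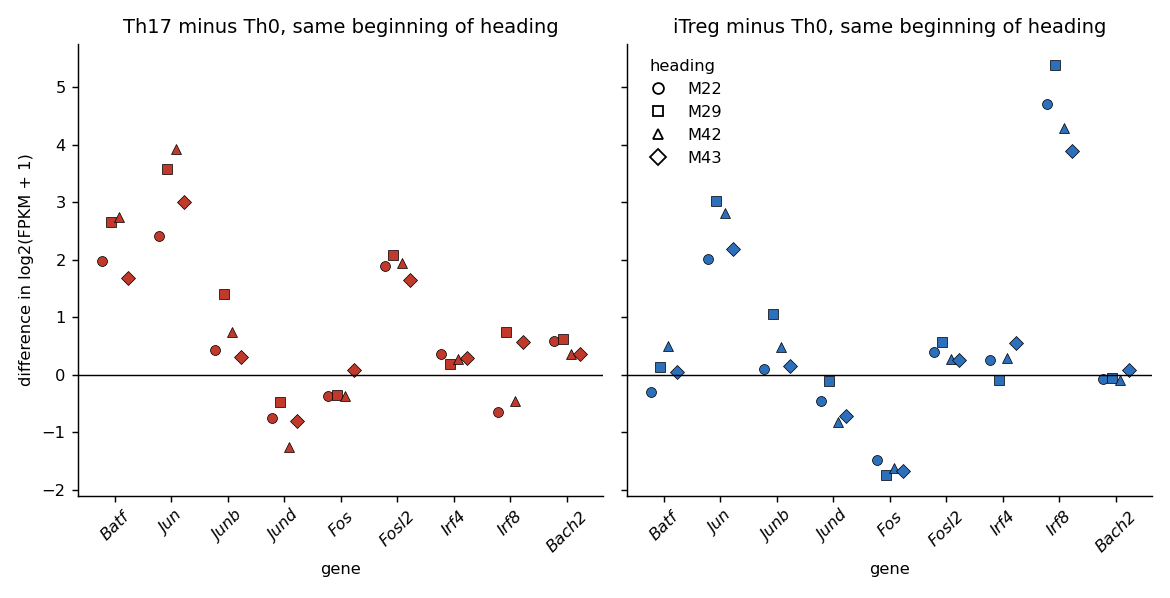
Differences in log2(FPKM + 1) between each Th17 or iTreg library and the Th0 library with the same beginning of its heading, with a symbol for each of the 4 beginnings. All 4 differences were above 0 for Batf, Jun, Junb, Fosl2, Irf4, and Bach2 in Th17 cells, those of Fos in iTreg cells ran from -1.75 to -1.49, and those of Irf8 in Th17 cells were split between both signs.

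The 2 IRF genes behaved differently, with Irf4 high in all groups and Irf8 raised in iTreg cells. Irf4 (chromosome 13, 30749226 to 30766976, plus strand) codes for IRF4, which is induced by T cell receptor signals and joins BATF-JUN pairs. Its levels were 171, 276, 236, and 189 FPKM in Th0 cells. Th17 libraries were at 218, 315, 286, and 230.5 FPKM and iTreg libraries at 202, 255, 285, and 276 FPKM. The groups overlapped throughout. The log2 fold change was 0.28 in Th17 cells (SE 0.18, adjusted p = 0.336) and 0.25 in iTreg cells (SE 0.18, adjusted p = 0.392). Each Th17 library exceeded the Th0 library of its heading by 0.19 to 0.35 log2 units, and with the replicate block the adjusted p was 0.030.

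Irf8 (chromosome 8, 120736358 to 120756694, plus strand) codes for IRF8, the closest relative of IRF4, best known from myeloid cells, dendritic cells, and B cells. Its Th0 libraries were at 5.15, 1.76, 11.2, and 13.1 FPKM and its Th17 libraries at 2.90, 3.60, 7.87, and 19.96 FPKM. The iTreg libraries were at 158, 115, 234, and 205 FPKM. The lowest iTreg library was far above all other libraries, and the M42 and M43 libraries were above those of M22 and M29 in each of the 3 groups. The log2 fold change in iTreg cells was 4.57 (SE 0.49, adjusted p = 4.46e-04), the 7th largest of 5270 positive changes, and it was 3.88 to 5.40 within headings. In Th17 cells it was 0.05 (SE 0.64, adjusted p = 0.971), with 2 of 4 libraries above and 2 below the Th0 library of their heading. Without the M22 or M29 Th0 library, or the M42 or M43 Th17 library, this value was below 0. The M43 Th17 library, with the most Foxp3 of its group, was also its highest for Irf8.

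Most markers of the other cells known to express Irf8 were not listed. Of the 7 dendritic cell markers, Flt3, Itgax, Xcr1, Clec9a, and Siglech were not listed in the iTreg table, and the listed Zbtb46 and H2-Ab1 summed to 0.681 to 1.91 FPKM in iTreg libraries against 3.08 to 8.23 FPKM in Th0 libraries. Of the macrophage markers that table listed Cd68 alone, at 2.61 to 7.19 FPKM in iTreg and 3.19 to 4.85 FPKM in Th0 libraries, and Cd79a was at 0.505 to 2.002 FPKM in iTreg and 0.638 to 3.80 FPKM in Th0 libraries. The part of such cells in the level of Irf8 was not tested.

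Bach2 (chromosome 4, 32238804 to 32586108, plus strand) codes for the repressor that competes with AP-1. It was at 38.0, 51.0, 56.2, and 52.6 FPKM in Th0 cells. Th17 libraries were at 57.6, 79.3, 72.0, and 67.7 FPKM and iTreg libraries at 35.6, 48.8, 51.7, and 55.3 FPKM. The Th17 libraries lay above all Th0 libraries, the iTreg libraries among them, and M22 was the lowest of each group. The Th17 log2 fold change was 0.48 (SE 0.15, adjusted p = 0.057), above the threshold, while with the replicate block the adjusted p was 0.0070 and after quantile normalization it was 0.049. In iTreg cells the log2 fold change was -0.03 (SE 0.17, adjusted p = 0.925), and it was 0.10 without the M22 iTreg library and 0.03 without the M42 Th0 library. Bach2os on the minus strand shares 5.40% of the exonic bases of Bach2.

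Beside these fits, two-sided exact permutation tests of 4 libraries against 4 gave p = 0.029 for each member whose groups did not overlap, the smallest p that 70 arrangements allow. These were 6 of 9 members in Th17 cells (Jun, Batf, Fosl2, Junb, Bach2, and Jund), where 23.8% of all genes did not overlap, and 5 of 9 in iTreg cells (Irf8, Jun, Junb, Jund, and Fos), where 22.8% did not. The exact permutation p was 0.457 for Fos, 0.229 for Irf4, and 0.914 for Irf8 in Th17 cells, and 0.60 for Batf, 0.171 for Fosl2, 0.20 for Irf4, and 0.714 for Bach2 in iTreg cells.

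FPKM is per length, so levels of different genes compare only as far as the transcript lengths used are right. These lengths are not given in the sources used here. In the M22 Th0 library 114 FPKM of Jund stood on 2459 reads and 39.1 FPKM of Batf on 265 reads. Their exonic bases in GENCODE are 1668 and 1406. The orders and percentiles below therefore describe the deposited FPKM and could change with other lengths. Irf4 had the highest mean FPKM of the members in every group, at 218 ± 47.4 in Th0, 263 ± 46.0 in Th17, and 254 ± 37.4 in iTreg cells (SD, n = 4). In Th0 cells Junb (129 ± 33.4), Jund (110.1 ± 17.9), Bach2 (49.4 ± 7.95), and Batf (29.8 ± 6.45) followed, and Fosl2, Irf8, Fos, and Jun were below 10 FPKM on average. Junb and Jund overlapped there, as did Bach2 and Batf and each pair of neighbors from Fosl2 down to Jun. In Th17 cells Batf, at 151 ± 45.3 FPKM, came next after Junb at 208 ± 15.2 and above Bach2 at 69.2 ± 9.10, and in each of the 4 Th17 libraries it was below Junb and above Bach2. From Bach2 down, Jund (61.5 ± 9.46), Jun (45.9 ± 6.77), and Fosl2 (37.8 ± 8.61) overlapped from one to the next. In iTreg cells Irf8 (178 ± 52.5) came second and overlapped with Junb (170 ± 10.3), and Batf (31.2 ± 3.49) overlapped with Jun (27.4 ± 5.92). Among all tested genes, Jun moved from the 19th percentile of mean FPKM in Th0 cells to the 83rd in Th17 and the 70th in iTreg cells, and Irf8 from the 32nd in Th0 to the 97th in iTreg cells.

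Because AP-1 proteins work as pairs, shares of FPKM within a library are given for small sets of the members. They describe mRNA only, not the pool of protein partners, and leave out bZIP genes outside the members. These shares do not change with a scaling factor of a library, so that all 3 groups can be set side by side, and they are given as descriptions without a test. Their size, and which gene holds the largest part, depend on the transcript lengths used, which are not given. In the M22 Th0 library 153 FPKM of Junb stood on 2103 reads and 114 FPKM of Jund on 2459 reads. The exonic bases in GENCODE are 2301 for Junb and 1668 for Jund. By reads over those bases Jund, not Junb, would be the larger part in each Th0 library. The shares below are those of the deposited FPKM. Jun made up 1.01 to 3.02% of the summed FPKM of Jun, Junb, and Jund in Th0 libraries, 11.9 to 16.4% in Th17 libraries, and 8.75 to 13.0% in iTreg libraries. Jund made up 41.5 to 50.2%, 15.1 to 23.3%, and 24.0 to 29.3% of that sum, and Junb was the largest part of it in 11 of 12 libraries. No Th0 library overlapped with a polarized library in the share of Jun or of Jund. The sum itself was 244 ± 52.3 FPKM in Th0, 315 ± 9.98 in Th17, and 272 ± 6.69 in iTreg cells (SD, n = 4).

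Among the listed members that code for partners of the JUN proteins, Batf was the largest part of the summed FPKM of Batf, Fosl2, and Fos in each of the 12 libraries, with 56.1 to 76.5% in Th0, 67.3 to 83.7% in Th17, and 65.4 to 73.0% in iTreg libraries. Fos held 7.72 to 17.3% of that sum in Th0 libraries but 1.46 to 3.46% in Th17 and 1.44 to 3.46% in iTreg libraries. The sum rose from 45.1 ± 4.27 FPKM in Th0 to 193 ± 46.8 FPKM in Th17 cells and was 44.7 ± 4.85 FPKM in iTreg cells (SD, n = 4). Set over the sum of the JUN genes it came to 0.149 to 0.258 in Th0, 0.421 to 0.720 in Th17, and 0.153 to 0.189 in iTreg libraries. The ratio of Batf to Irf4 was 0.105 to 0.229, 0.372 to 0.719, and 0.0969 to 0.155 in the same order of groups, and that of Batf to Bach2 0.445 to 1.03, 1.27 to 2.72, and 0.482 to 0.877. The Th17 libraries stood above both other groups in each of these ratios, with M43 the lowest of them in all 3. Irf8 was 0.633 to 6.49% of the summed FPKM of Irf4 and Irf8 in Th0, 1.13 to 7.97% in Th17, and 31.0 to 45.1% in iTreg libraries, where Irf4 exceeded Irf8 by 1.22 to 2.23 times.

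**Figure D4:**
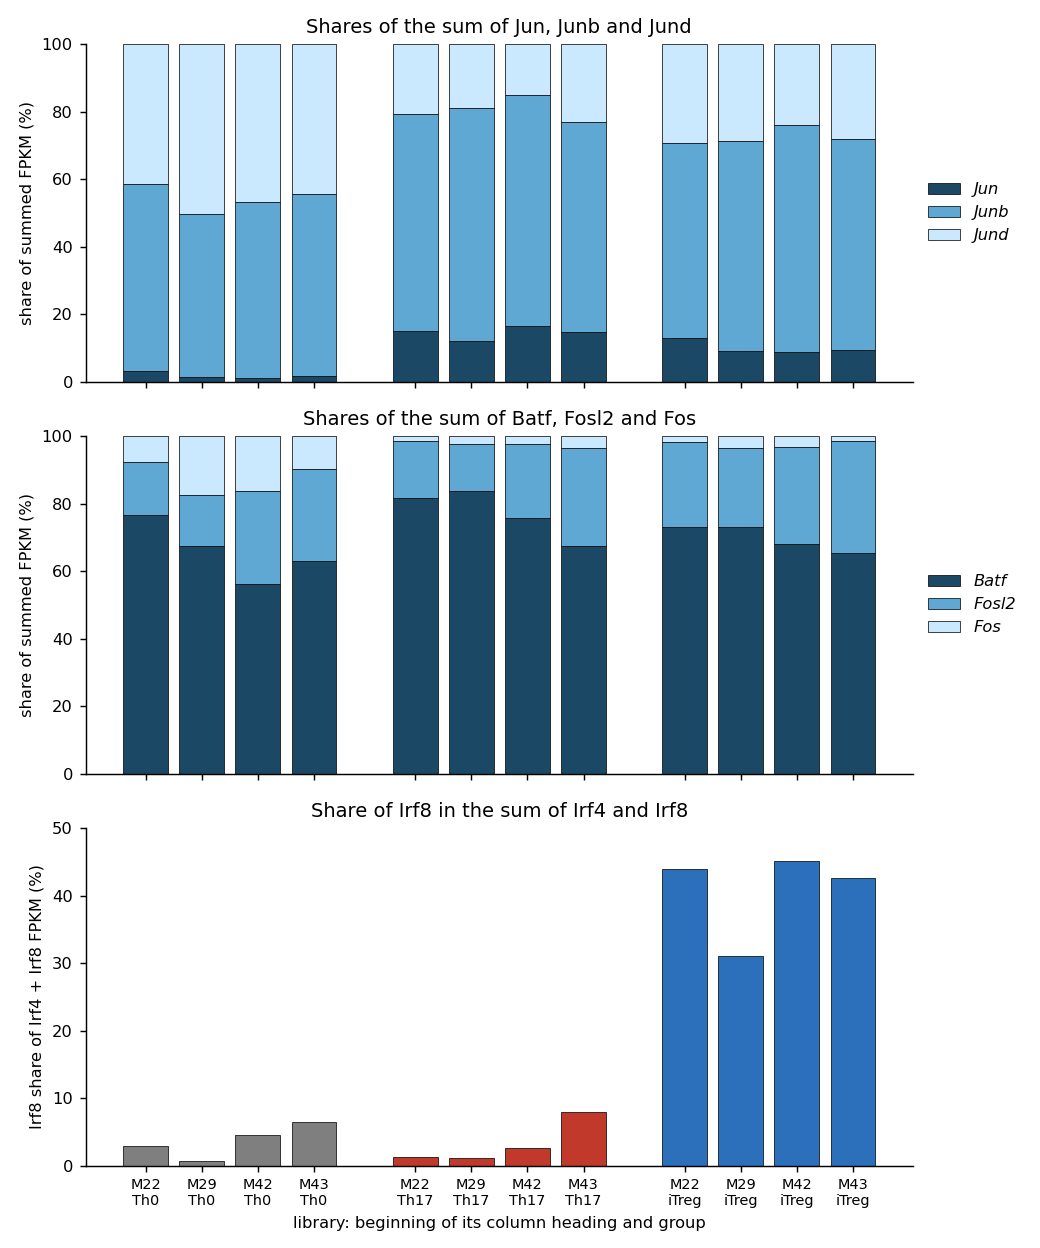
Shares of summed FPKM within each of the 12 libraries: Jun, Junb, and Jund (top), Batf, Fosl2, and Fos (middle), and Irf8 as a percent of Irf4 plus Irf8 (bottom, axis to 50%). Jun reached at most 3.02% in Th0 libraries and at least 8.75% in polarized libraries, Fos at most 3.46% of its sum in polarized libraries, and Irf8 at least 31.0% in iTreg libraries.

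Other genes of the same pathways were counted from lists, beside the 19.3% of all genes that were DE in Th17 and the 16.6% in iTreg cells, or 37.8% and 40.9% with the replicate block. Of 20 other AP-1, ATF, CNC, and MAF bZIP genes tested, 7 were higher and 1 lower in Th17 cells, with log2 fold changes of 5.46 for Maf, a known Th17 factor, 2.73 for Jdp2, 1.29 for Maff, and -1.42 for Atf3 as the largest, and without single libraries 5 to 10 were DE, and 11 with the block. In iTreg cells 5 of these 20 were higher and none lower, with 4.18 for Maf, 1.83 for Maff, 1.14 for Cebpb, and 1.06 for Nfil3, and the replicate block made that 10. The fifth was Jdp2. For Jdp2 and Atf3 not every library exceeded 1 FPKM. The list's median log2 change was 0.24 and 0.29, against -0.00071 and 0.011 over all genes.

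Of 10 other IRF genes and IRF-binding corepressors, 4 were higher and none lower in Th17 cells (among them Irf2bpl at 1.56, Irf9 at 0.87, and Irf7 at 0.67 in log2 fold change), 2 to 5 without single libraries and 7 with the replicate block. Irf7 was at 0.343 to 1.29 FPKM in Th0 and 1.17 to 2.15 FPKM in Th17 libraries. It could thus have entered the test through the Th17 libraries alone, and its direction is a description. Of the other 9 genes, 3 were higher. In iTreg cells Irf5, a relative of Irf8, rose by 2.15 and Irf2bpl by 0.88, and Irf2 fell by 0.68 on the log2 scale, with 5 of 10 DE under the block. The list's median was 0.35 in Th17 and -0.04 in iTreg cells.

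The MAP kinase genes that lead to JUN and FOS, with the DUSP phosphatases that switch these kinases off, held 4 higher and 3 lower of 19 in Th17 cells, with log2 changes of -1.83 for Dusp6, -1.07 for Dusp5, -1.01 for Dusp2, and 0.72 for Mapk3, and without single libraries 5 to 7 were DE, and 10 with the block. The other 3 higher genes, named after their values were seen, were Dusp10 (0.71), Mapk9 (0.45), and Map2k2 (0.32). In iTreg cells 4 were higher and 2 lower (1.37 for Dusp4, 1.22 for Map2k3, 0.87 for Dusp5, and -0.57 for Mapk14, with Mapk3 at 0.39 and Map2k6 at -0.42 named after their values were seen), with 11 DE under the block, and the medians were 0.14 and -0.09. For Map2k6 not every iTreg library exceeded 1 FPKM, and of the other 18 genes 4 were higher and 1 lower.

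Of 12 Th17 genes known to need BATF, IRF4, or JUNB, 11 were listed in the Th17 table. In 8 of these 11 not every library exceeded 1 FPKM, and their direction is given as a description. Among them were Il17f (log2 change 8.64), Il21 (6.07), Ahr (4.86), and Il17a (4.50). Of these 8, all but Ccl20 could have entered the test through the high Th17 libraries alone. Ccl20 was at 0.906 FPKM in its lowest Th17 library and needed Th0 libraries as well. Also among these 8, Ccr6 (1.34) and Ccl20 (0.44) were not DE in Th17 cells, though Ccr6 was with the replicate block. The other 3 were all higher, among them Rora at 3.25 and Hif1a at 0.90, both named after their values were seen. Of the 12, 5 were not listed in the iTreg table, and 4 of the 7 listed, among them Il17f (5.53), Ccr6 (3.59), and Ccl20 (2.92), again had libraries at or below 1 FPKM. Of the other 3, 2 were higher, among them Rora at 1.43, and Hif1a was lower at -0.55.

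Effector genes known to be restrained by BACH2 were split, and 6 of the 12 were not listed in the Th17 table. In Th17 cells 2 of 6 were higher (S1pr1 2.17 and Ccr8 1.45) and 2 lower (Gzmb -3.05 and Gata3 -1.96), with a median of -0.25, 2 to 4 DE without single libraries, and 5 DE under the block. In iTreg cells 1 of 5 tested was higher (Ccr8 4.18) and 1 lower (Gzmb -2.66), with a median of 0.90 and 5 of 5 DE under the block. Gzmb was at no more than 0.173 FPKM in Th17 and 0.631 FPKM in iTreg libraries. It therefore entered both tests through the Th0 libraries alone, and its direction is a description. Among the genes above 1 FPKM in every library, 2 of 4 were higher and 1 lower in Th17 cells. In iTreg cells 1 of 4 such genes was higher and 0 were lower.

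The genes most like each member were those with the largest smaller value of 2 Pearson correlations of log2(FPKM + 1), over the 8 libraries of each table and among 10079 genes. Both tables hold the same Th0 cultures, and each r carries the difference between groups as well as the spread within them, so that it is a description. Jun was most like Ninj1 (0.973) and Rora (0.971). Irf8 was most like Plagl2 (0.967) and Ppa1 (0.913). For Batf these were Pagr1a (0.882) and Rmnd5b (0.857), and for Fosl2 Zfp639 (0.936) and Ncs1 (0.922). The profile of Junb was closest to Pigyl (0.946) and Slfn10-ps (0.925), and that of Jund to Stc2 (0.959) and Mbp (0.938). Fos was nearest to Gabpb2 (0.925) and Gm17821 (0.891), Irf4 to Usp36 (0.864) and Sde2 (0.852), and Bach2 to Nfatc3 (0.897) and Ankib1 (0.875). No member was among the 2 genes most like another member.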

How the data were processed

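RNA-seq of 12 libraries, 4 each of Th0, Th17, and iTreg cells, was analyzed. The study sequenced paired ends on an Illumina HiSeq, mapped the reads to mm10 with TopHat 2.0.14, counted exonic reads by HTSeq-count in union mode with no strand, and kept genes with more than 1 CPM in at least 4 samples. The FPKM values deposited by the authors are in 2 tables of 8 libraries, one for each polarized group with its Th0 controls, each scaled on its own. How FPKM was calculated and the gene annotation are not given in the sources used here. A further 5 columns per table hold the authors' edgeR comparison (log2 fold change, average CPM, test score, p-value, and FDR) and were not used.

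A gene entered the test of a table if 4 or more of the 8 libraries exceeded 1 FPKM. The test was limma 3.58.1 (R 4.3.3) on log2(FPKM + 1) without a block, and p-values were adjusted by Benjamini-Hochberg over all genes tested, with an FDR of 0.05 as the threshold. The script was tested on simulated data. Permutation tests were exact and two-sided over 70 arrangements (Python 3.11.15, numpy 2.4.6, pandas 2.3.3, scipy 1.17.1). The study tested its RNA-seq counts with a pair-wise design, and its sample titles number the experiments in each group. Columns name a group but no experiment, and what the heading beginnings M22, M29, M42, and M43 mark is not stated. The fit without a block and the permutation tests therefore leave any pairing out. Deviations from the group mean correlated at 0.450 to 0.784 (Th17 table) and 0.662 to 0.769 (iTreg table) across genes for libraries with the same beginning, and at -0.590 to 0.434 and -0.576 to 0.248 otherwise, so that a fit with this beginning as a replicate block is given where it changes a call.

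Whole reads were recovered as the smallest whole numbers that fit a gene's FPKM values after each library was set on a common step (relative tolerance 1e-06, at most 0.02 reads). For 99.3% of genes in both tables they gave the same Th0 reads. No counting intervals were calculated from them. Positions are from GENCODE M21 and promoter sequences from RefSeq, both on GRCm38. Motifs were sought on both strands in the 250 bases before each start.

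All 10 members were named. From each other list the text names the DE genes with the largest log2 change, up to 4 per comparison, and for each member the 2 genes most like it. A few genes that this rule picks are not reported here. The members and lists were chosen with earlier results of these data known. The alternatives were a pseudocount of 0.1, no filter, a filter in at least 2 libraries, median centring, quantile normalization, limma-trend, an FDR of 0.01, the replicate block, and each library left out.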

Additional observations from a re-analysis of the deposited data

Results flagged for a closer look

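Jun in the M22 iTreg library, at 36.3 FPKM, lay far above the other 3 iTreg libraries (24.0 to 24.7 FPKM). Its gap to the next library was 0.943 of the range of the group, above the 95% critical value of Dixon's test for 4 samples. It was the only one of 27 combinations of a member and a group with such a value, and chance gives about 1 in 20. M22 was also the highest Th0 library for Jun, at 8.29 FPKM. Without the M22 iTreg library, Jun remained DE in iTreg cells.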

How the results depend on the processing

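Batf, Jun, Fosl2, and Jund in Th17 cells and Irf8, Jun, and Fos in iTreg cells kept their direction and stayed DE under every alternative run. Over all alternatives, 263 of the members' values kept their direction and side of the threshold, 15 were no longer DE, 4 became DE, and 6 changed sign. Those 6 were Irf8 in Th17 cells (-0.44 to 0.37 when single libraries were left out) and Bach2 in iTreg cells (-0.15 to 0.10), neither of them DE in any fit. The 15 were Junb in Th17 cells (0.69 to 0.77 where leaving out a library lost the call, 0.51 to 0.81 over all 8 libraries left out, 0.68 after median centring) and Jund in iTreg cells (-0.57 to -0.47 where it was lost, -0.65 to -0.47 over all 8), each also at an FDR of 0.01, where 995 genes were DE in Th17 and 778 in iTreg cells. With the replicate block 3882 and 4170 genes were DE. Among members the block made Bach2 and Irf4 in Th17 and Fosl2 in iTreg cells DE, quantile normalization also Bach2, and the block changed no other member's call. Without single libraries 1364 to 2237 genes were DE in Th17 and 1140 to 1521 in iTreg cells, and 4 to 5 and 3 to 4 members. Of the list genes named for the size of their change, Atf3, Ccl20, Ccr8, Dusp6, Irf2, Irf7, Nfil3, and S1pr1 were among those that lost their call in at least 1 alternative. Jdp2, Mapk3, Map2k6, and Hif1a in iTreg cells and Hif1a, Dusp10, and Map2k2 in Th17 cells were also not DE at an FDR of 0.01. Why calls changed was not tested. Fos in iTreg cells rests on few reads and could have entered the test through the Th0 libraries alone.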
